A study of Homo sapiens with 10 samples.

Results

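HOX genes encode homeodomain transcription factors and stand side by side in 4 clusters, HOXA, HOXB, HOXC and HOXD. Chromatin accessibility around 38 of them was examined in DLD-1 cells, a human colorectal adenocarcinoma line. The 38 genes, of 19974 protein-coding genes in the RefSeq gene table, were taken by name: 10 in HOXA, 10 in HOXB, 9 in HOXC and 9 in HOXD. A called peak belonged to them when it lay inside the RefSeq body of one of these genes or within 20 kb of either end. The rule uses gene names and positions only.

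The assay was ATAC-seq, in which a transposase inserts adapters into open chromatin, and 10 libraries formed 5 groups of 2. Cells of genotype GATA6-AID-IAA7, whose GATA6 protein is fused to a degron that auxin turns on and that sends it to the proteasome, gave 3 groups. AID_ctrl was labelled with auxin, a time of 0 h and the title control, and is read here as untreated. AID_aux had 12 h of auxin, and AID_wash had auxin removed again, with its time given as 1 and no unit. The treatment protocol named 500 µM IAA, a natural auxin, applied to positive clones of the degron line, without saying how many clones were used. The other 4 libraries came from unedited cells (WT) and from cells with GATA6 knocked out by CRISPR/Cas9 (KO), for which the number of clones was not given either. GATA6 is a zinc-finger transcription factor of gut epithelium, and the series compares accessibility with and without it. Nothing states that replicates were separate cultures, so the spread between them may be technical.

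Along the body axis of the embryo, HOX genes at one end of a cluster (the low paralog numbers) pattern anterior structures and those at the other end (the high numbers) pattern posterior ones, including the hindgut from which the distal colon forms. Polycomb proteins keep HOX genes silent where they are not used, trithorax proteins oppose them, and retinoic acid and the caudal factors (CDX) set the domains in which they are switched on. Adult cells keep part of this positional code, so a cell line usually has some stretches of each cluster open and others closed.

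The windows so defined spanned 622.18 kb in all. HOXA occupied chromosome 7, 27080354 to 27220091, and HOXC occupied chromosome 12, 53918831 to 54076030. HOXD occupied chromosome 2, 176067487 to 176210907. HOXB occupied chromosome 17, 48508526 to 48646358, with a separate window at 48704763 to 48748750 for HOXB13, which stands apart from its neighbours. All coordinates are hg38. The gene table used gives neither strand nor exons, so peaks are placed inside or outside a gene body and not in exons or introns.

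Each library came as its own list of called peaks, with no read counts, so the depth behind a value is unknown. The degron lists held 154150 to 198493 peaks with an enrichment per peak. The WT lists held 65939 and 92814 windows of 500 bp, the KO lists 116231 and 130311, and these carried no value. WT and KO peaks were therefore not set against degron peaks in level. With 2 libraries against 2, an exact two-sided permutation test cannot go below 0.333, so no p-value is given and changes are counts of calls, read beside the same count over all regions. For the identity of the cells, the promoter table held 5 of 11 colorectal marker genes. KRT8, KRT20, CDX2 and HNF4A had a peak at the promoter in all 10 libraries, and GPA33 had none. Of 7 markers of other cell types in that table, SYP was called in all 10 libraries, and PTPRC, PDGFRB, KDR, ALB, APOA2 and NEUROD1 in none.

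The upstream sequences of 4 genes show what lies at starts that behaved differently. HOXD8 was the only gene of the promoter table whose start calls differed between both WT and both KO libraries, HOXC4 (with HOXC5) had the start with the highest ranked enrichment of its cluster, and the starts of HOXB1 and HOXD4 had no peak in any library. Each run is the 250 bases before the RefSeq start, 5′ to 3′ on the gene's strand, from RefSeq (GRCh38.p14), with every CG dinucleotide in capitals.
HOXD8, chr2:176129455-176129704, plus strand: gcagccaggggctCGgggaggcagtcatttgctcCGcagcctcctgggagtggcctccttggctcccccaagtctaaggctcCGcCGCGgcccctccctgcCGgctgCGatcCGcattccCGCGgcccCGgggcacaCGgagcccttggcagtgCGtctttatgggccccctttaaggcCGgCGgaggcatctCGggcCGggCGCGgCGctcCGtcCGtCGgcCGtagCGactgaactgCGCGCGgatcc
HOXC4, chr12:54016638-54016887, plus strand: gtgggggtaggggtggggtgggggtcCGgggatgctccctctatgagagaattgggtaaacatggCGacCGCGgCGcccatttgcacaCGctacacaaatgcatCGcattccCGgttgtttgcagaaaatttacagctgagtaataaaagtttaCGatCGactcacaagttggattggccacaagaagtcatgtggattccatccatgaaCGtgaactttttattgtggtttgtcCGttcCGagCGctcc
HOXB1, chr17:48531012-48531261, minus strand: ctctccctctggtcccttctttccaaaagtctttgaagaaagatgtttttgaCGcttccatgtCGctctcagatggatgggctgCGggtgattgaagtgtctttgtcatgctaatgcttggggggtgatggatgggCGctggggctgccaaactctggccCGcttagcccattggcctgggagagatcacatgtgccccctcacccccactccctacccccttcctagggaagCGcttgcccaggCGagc
HOXD4, chr2:176151300-176151549, plus strand: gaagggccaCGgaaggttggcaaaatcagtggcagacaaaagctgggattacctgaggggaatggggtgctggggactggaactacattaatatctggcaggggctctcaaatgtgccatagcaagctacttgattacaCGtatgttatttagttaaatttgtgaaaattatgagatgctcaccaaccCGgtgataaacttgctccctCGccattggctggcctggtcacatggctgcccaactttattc
The HOXD8 stretch held 28 CG dinucleotides and the HOXC4 stretch 14, against 7 for HOXB1 and 4 for HOXD4. These 4 do not stand for all: the starts of HOXD10 and HOXD12, which no library called either, had 23 and 16 in the same stretch.

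All 4 clusters were covered by peaks more densely than the genome, and their order was HOXA, HOXB, HOXC, HOXD in each degron library. In the 6 degron libraries peaks covered 12.3 to 14.7% of the HOXA window, 9.21 to 12.8% of HOXB, 7.08 to 8.59% of HOXC and 5.68 to 7.03% of HOXD. Over chromosomes 1 to 22 and X the same lists covered 1.87 to 2.32%. HOXA therefore stood at 5.49 to 6.57 times the genome's share and HOXD at 2.65 to 3.22 times. The libraries of HOXA and HOXB overlapped in their shares, while the highest HOXD library lay just below the lowest HOXC library (7.03 against 7.08%).

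In the WT and KO lists HOXA and HOXB were again the densest. Peaks covered 9.66 to 12.9% of HOXA, 7.15 to 13.5% of HOXB, 3.18 to 6.68% of HOXC and 2.44 to 4.88% of HOXD, beside 1.09 to 2.15% of the genome. In both KO libraries HOXB had the larger share, 13.5% against 12.9 and 11.8% for HOXA, and in both WT libraries HOXA did.

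**Figure D1:**
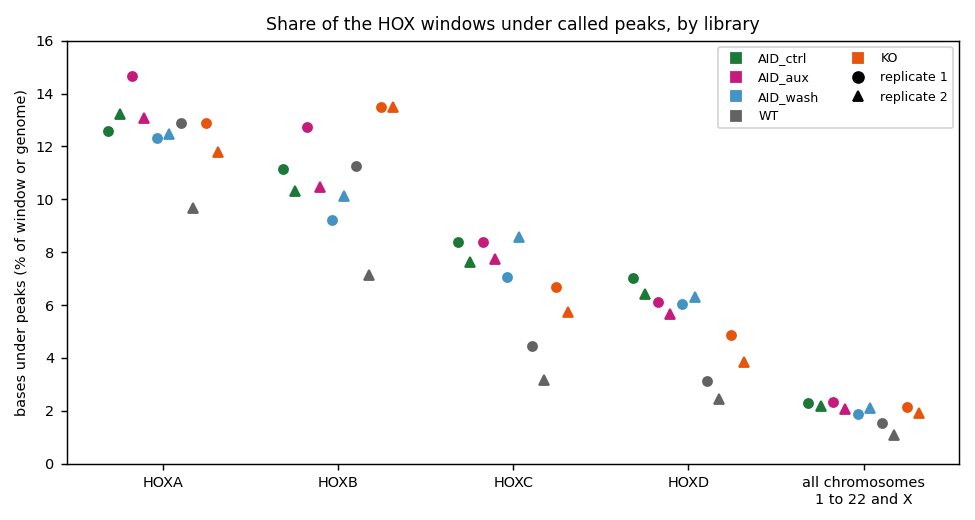
The vertical axis is the percent of each HOX window, or of chromosomes 1 to 22 and X, that lies under called peaks, with 1 point per library (colour for group, circle or triangle for replicate). Points of HOXA and HOXB lie between 7.15 and 14.7%, those of HOXC and HOXD between 2.44 and 8.59%, and those of the genome at or below 2.32%.

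Merging the peaks of the 6 degron lists gave 144 regions in the HOX windows: 46 in HOXA, 66 in HOXB, 20 in HOXC and 12 in HOXD. Of these, 68 were called in all 6 libraries (47.2%), beside 51.6% of 120452 regions genome-wide. By cluster this was 22 of 46 in HOXA, 26 of 66 in HOXB, 12 of 20 in HOXC and 8 of 12 in HOXD. In the degron lists HOXC and HOXD thus held fewer regions, a larger share of which was called throughout. The degron regions of HOXC and HOXD were also longer, with a median length of 870.5 and 1115.5 bp against 493 bp in HOXA and 361.5 bp in HOXB. The WT and KO lists gave 138 regions, 53 of them called in all 4 libraries (38.4%, beside 31.9% genome-wide). Split by cluster, this was 20 of 43 in HOXA, 21 of 56 in HOXB, 6 of 24 in HOXC and 6 of 15 in HOXD. In these lists HOXC thus had the smallest share called throughout. The median length of its regions was 511 bp, against 595 bp in HOXA, 545 bp in HOXB and 561 bp in HOXD. Every WT and KO window was 500 bp long, so a region was longer only where windows were joined. Its length is therefore no trait separate from the calls. Of the 68 regions constant in the degron libraries, 48 were also called in all 4 WT and KO libraries and 2 in none of them. Replicates differed in many calls: 32 HOX regions were called in only 1 of the AID_ctrl libraries, 37 in only 1 of AID_aux, 33 in only 1 of AID_wash, 44 in only 1 of WT and 28 in only 1 of KO.

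**Figure D2:**
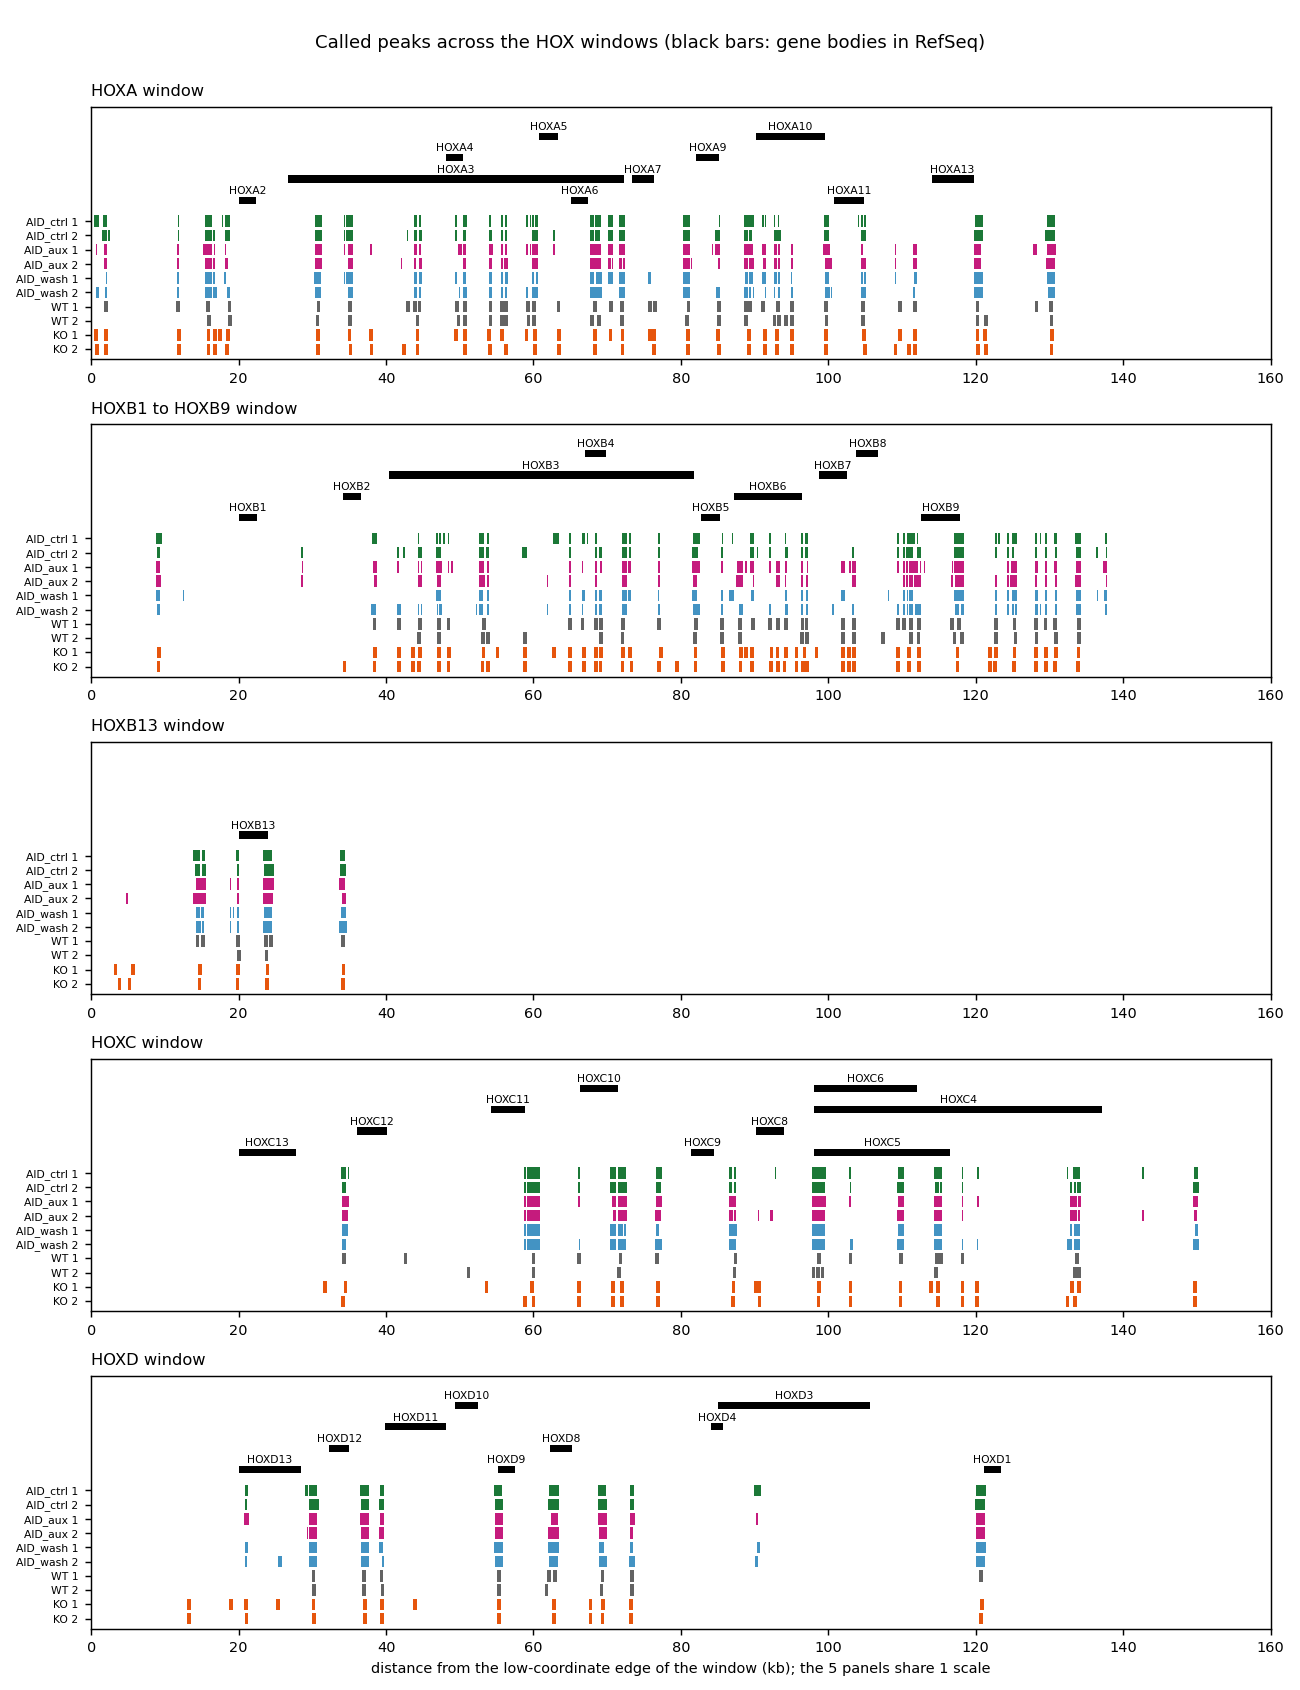
Each panel is a HOX window, with the distance from its low-coordinate edge in kb on the horizontal axis, RefSeq gene bodies as black bars and the called peaks of each library in a row of its own. Peaks recur in the same places from row to row, and HOXA2, HOXB1 and HOXC13 lie in stretches where no row has a peak.

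The longest stretches with no peak in any of the 10 libraries took in 3 whole genes and parts of HOXA3 and HOXD3. In HOXA the stretch was 11.18 kb long and held all of HOXA2 (27099446 to 27110625), a gene that patterns the hindbrain and the second pharyngeal arch. The HOXB stretch was 15.93 kb long and held HOXB1 (48521102 to 48537031), which specifies facial motor neurons in the hindbrain. The HOXC stretch ran from the edge of the window for 31.461 kb and held HOXC13 (53918831 to 53950291), known for its role in hair and nail. In HOXD it was 28.978 kb long, between 176158365 and 176187342, and covered most of the HOXD3 body. The longest empty stretches thus lay at anterior genes in HOXA, HOXB and HOXD and at the most posterior gene in HOXC. Gene bodies with no peak in any library were not mainly anterior: 2 were anterior, 4 central and 6 posterior (paralog groups 1 to 3, 4 to 8 and 9 to 13).

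Start sites were scored in a window from 250 bases before to 50 after the start, from the RefSeq promoter table for the 20 genes it holds and from the 5′ end in the gene table for the other 18. A peak touched the start in all 10 libraries for 8 genes: HOXA3, HOXA4, HOXA10, HOXB3, HOXB6, HOXB13, HOXD9 and HOXD11. For 12 genes no library had one: HOXA2, HOXB1, HOXB2, HOXB4, HOXB8, HOXC9, HOXC11, HOXC12, HOXC13, HOXD4, HOXD10 and HOXD12. No HOXC gene was in the first set, and 4 were in the other. For the 20 genes in the promoter table the counts were 4 called in all 10 libraries (20%), beside 33.9% of all 27195 genes, and 5 called in none (25%), beside 45.9%. The other 11 were called in some libraries. With 1000 bp on each side of the start, 16 genes were called in all 10 libraries and 9 in none (HOXA2, HOXB1, HOXB2, HOXC9, HOXC12, HOXC13, HOXD4, HOXD10 and HOXD12).

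Counted in both libraries of a group, the promoters of the 20 genes in the table stood near the level of all genes. In AID_ctrl 11 of 20 were called in both libraries, beside 47.9% of all 27195 genes. In AID_aux it was 9 (47.9% of all genes) and in AID_wash 10 (47.3%). In WT it was 7 (38.1%) and in KO 8 (40.2%). The HOX shares, from 35% in WT to 55% in AID_ctrl, lay on both sides of those of all genes, although the windows around the HOX starts were covered more densely than the genome.

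By position along the clusters, the 7 anterior genes (paralog groups 1 to 3) had 3 starts called in all 6 degron libraries and 3 called in none. Of the 15 central genes (groups 4 to 8), 5 were called in all 6 and 7 in none. These 5 include HOXC4, HOXC5 and HOXC6, which share 1 start and so count 1 site more than once. Among the 16 posterior genes (groups 9 to 13), 6 were called in all 6 and 6 in none. Each position class thus held starts called throughout and starts with no call in these 6 lists. Of the central starts without one, HOXA5 and HOXA7 were called in 3 of the 4 WT and KO libraries.

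Among anterior genes, HOXA3, which is needed for thymus and parathyroid, was called in all 10 libraries at low enrichment. The deposited enrichment is the ratio of the signal at a peak's summit to its local background. HOXA3 has 7 start windows in the table, of which only the outermost, at 27152583, was called in all 10 libraries. There it was 2.38 and 2.84 in AID_ctrl, 2.32 and 2.39 in AID_aux, and 2.62 and 2.70 in AID_wash. HOXB3 was also called throughout, at 3.86 and 3.28 in AID_ctrl, 4.07 and 3.97 in AID_aux, and 4.11 and 3.52 in AID_wash. The start of HOXD1, the most anterior gene of its cluster, was the strongest of the anterior class: 8.17 and 7.03 in AID_ctrl, 7.88 and 8.82 in AID_aux, and 7.26 and 8.0 in AID_wash. It was called in WT 1 and both KO libraries, and in WT 2 the nearest peak lay 47550 bp away. HOXB2 and HOXA2 had no peak within 1000 bp of the start in any library, the nearest lying 1435 and 3238 bp away.

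Among central genes, HOXC4, HOXC5 and HOXC6 share the 1 RefSeq start scored for them, 54016888, so they have 1 set of values. Any start further inside their bodies was not scored. At 54016888 the enrichment was 8.23 and 8.03 in AID_ctrl, 7.60 and 8.93 in AID_aux, and 8.05 and 7.42 in AID_wash. All 6 values lay close together. Their rank in AID_ctrl, a mean percentile of 75.8 among all peaks of the same library, was the highest of any start scored in HOXC. In the WT and KO lists only WT 2 had a peak on this start, while WT 1, KO 1 and KO 2 had their nearest window 413, 390 and 368 bp away. HOXA4 was called in all 10 libraries at 2.84 to 3.61, and HOXB6 in all 10 at 2.33 to 3.09. HOXB5 was called in 4 of 6 degron libraries at 1.84 to 2.25 and in all 4 WT and KO libraries. HOXA5, known for its role in lung, and HOXA7 were called at the start in no degron library and in WT 1, KO 1 and KO 2. HOXB4, a regulator of blood stem cells, had no peak in its start window, although peaks covered 9.6 to 38.6% of its body in the 10 libraries. Of the central genes, HOXA6, HOXB5, HOXB8 and HOXD4 had 0% of their bodies under peaks in every library.

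Among posterior genes, HOXA10, which acts in the uterus and in blood, had the highest ranked start in HOXA. Its enrichment was 5.73 and 4.98 in AID_ctrl, 5.40 and 5.19 in AID_aux, and 5.65 and 5.03 in AID_wash, with a mean percentile of 49.3 in AID_ctrl. HOXB13, a gene of the prostate and the distal gut, had the highest ranked start in HOXB at 8.05 and 9.21 in AID_ctrl, 8.84 and 9.41 in AID_aux, and 8.17 and 6.54 in AID_wash (mean percentile 78.9). HOXD9 had the highest ranked start of all 38 genes, at 9.89 and 9.75 in AID_ctrl, 9.83 and 8.42 in AID_aux, and 8.95 and 7.46 in AID_wash (mean percentile 85.1). For HOXD9 both AID_ctrl values and AID_aux 1 lay above the other 3 libraries. HOXD11 gave 6.21 and 6.73 in AID_ctrl, 5.74 and 4.39 in AID_aux, and 4.59 and 4.02 in AID_wash. Both HOXD11 values in AID_ctrl were above all 4 others. This order was noticed among the 14 genes with a start called in all 6 degron libraries, of which HOXC4, HOXC5 and HOXC6 share 1 start. It is a description only, since enrichment is relative to each library's own background.

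HOXA13, which patterns the hindgut and the digits, was called at the start in all 6 degron libraries and in none of the WT and KO libraries. Its enrichment was 3.70 and 5.04 in AID_ctrl, 5.84 and 5.31 in AID_aux, and 6.91 and 5.03 in AID_wash. The degron peaks began 9 to 107 bp from the start and the WT and KO windows 254 to 358 bp from it, so all 10 libraries had a peak within 1000 bp. HOXD13, its HOXD counterpart, was called in AID_wash 2 and KO 1 only. HOXA9, known from blood stem cells and leukaemia, was called in 5 of 6 degron libraries at 1.89 to 2.65 and in all 4 WT and KO libraries. HOXA11 was called in 5 of 6 degron libraries at 2.37 to 2.87 and in all 4 WT and KO libraries. HOXC10 was called in 4 of 6 degron libraries and 3 of 4 WT and KO libraries, and HOXC11, HOXC12 and HOXC13 in none.

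The remaining partly called starts were those of HOXA6 (AID_ctrl 2 and AID_aux 1, at 3.33 and 3.31), HOXD3 (AID_ctrl 1 alone, at 5.12) and HOXC8 (KO 1 alone). HOXB7, HOXB9 and HOXD8 are described with the KO comparison. HOXD10 and HOXD12 had their nearest peak 5090 and 1478 bp away at the closest.

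**Figure D3:**
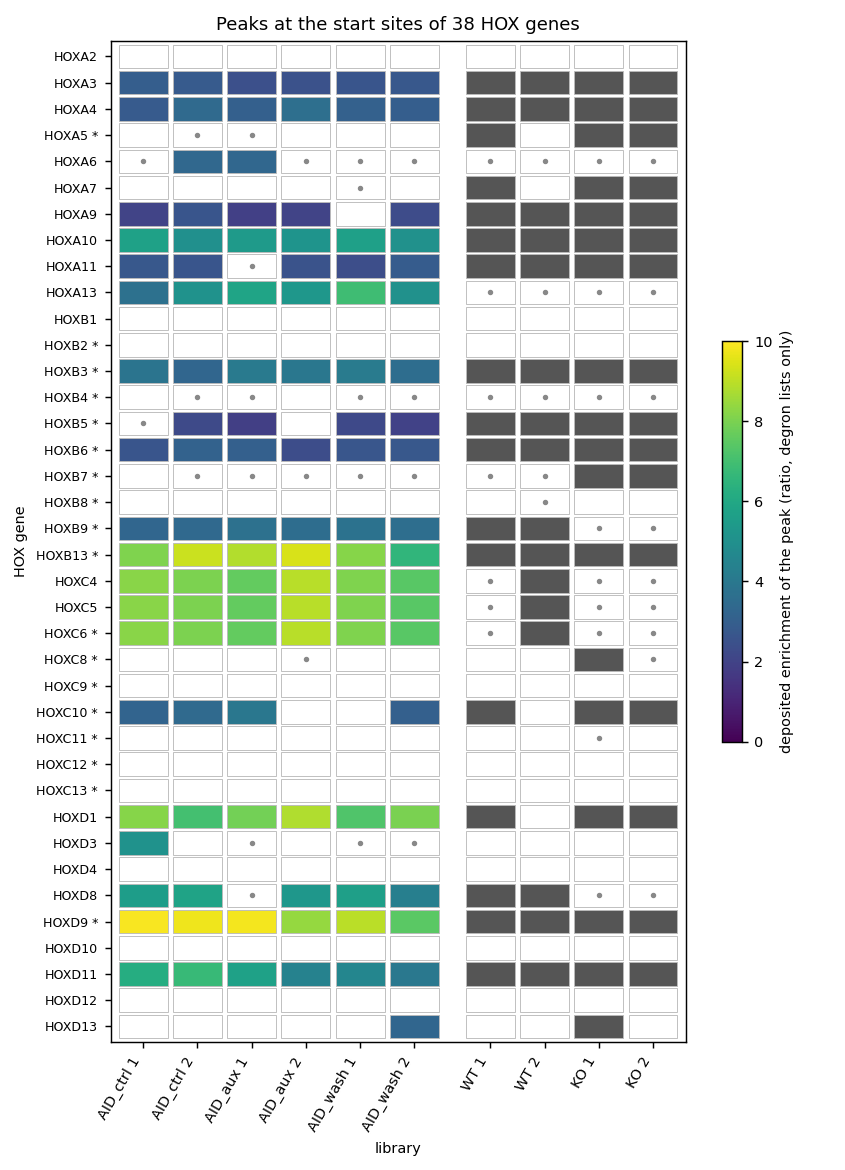
Rows are the 38 HOX genes and columns the 10 libraries. A colour gives the deposited enrichment of the peak on the start in the degron lists (the highest where a gene has several start windows), grey marks a called start in the WT and KO lists, a dot marks a peak within 1000 bp that does not touch the start window, and an asterisk marks a start taken from the gene table. HOXB13, HOXC4, HOXC5, HOXC6, HOXD1 and HOXD9 have the highest values, and 12 rows have no filled cell.

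HOXA and HOXB were rich in weak peaks. The median enrichment of their peaks was 2.82 to 3.08 in HOXA and 2.42 to 3.00 in HOXB over the 6 degron libraries, against 5.17 to 5.57 for all peaks. As a rank within its own library, the median HOXA peak stood at percentile 5.69 to 7.84 and the median HOXB peak at 2.13 to 5.81. HOXC medians were 3.95 to 4.92 (percentile 28.1 to 41.2) and HOXD medians 4.49 to 5.73 (percentile 39.4 to 56.0). The 6 libraries of HOXA and HOXB did not overlap those of HOXC and HOXD in this rank. By -log10 p, the other value each peak carries, the clusters lay closer together: median percentiles of 33.3 to 39.0 for HOXA, 31.6 to 41.2 for HOXB, 40.6 to 49.7 for HOXC and 33.3 to 49.9 for HOXD.

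The clusters also differed in how much of the 20 kb around a peak lay under peaks. The median was 12.9 to 17.1% around HOXA peaks, 13.5 to 19.2% around HOXB peaks, 9.12 to 11.8% around HOXC peaks and 11.9 to 15.1% around HOXD peaks. HOXD peaks thus had denser surroundings than HOXC peaks and no lower enrichment. Over all peaks, the median enrichment was 5.38 to 5.89 where up to 5% of the surroundings was covered, and 5.59 to 6.03 at 5 to 10%. It was 4.76 to 5.07 at 10 to 15%, 4.17 to 4.45 at 15 to 20% and 3.65 to 3.93 at 20 to 100%. All of those medians lie above the medians of HOXA and HOXB, and those of the most covered surroundings lie nearest to them. The part of peak crowding in the low enrichment of HOXA and HOXB was not tested beyond these values.

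**Figure D4:**
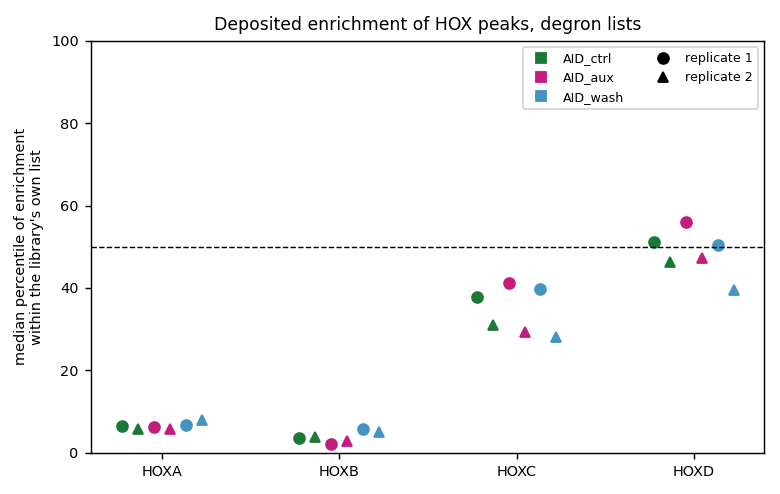
The vertical axis is the median percentile of the deposited enrichment of a cluster's peaks within the library's own list, with 1 point for each of the 6 degron libraries and a dashed line at the middle of the list. HOXA and HOXB points lie between 2.13 and 7.84, HOXC and HOXD points between 28.1 and 56.0.

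The strongest peak of each cluster in AID_ctrl lay away from the starts scored here in HOXA, HOXC and HOXD. Only 1 start was scored for HOXC4. In HOXC it was a 1896 bp region inside HOXC4, 34312 bp from the start (54051200 to 54053095), with enrichment of 12.62 and 15.72 in AID_ctrl, 14.48 and 13.52 in AID_aux, and 14.19 and 10.22 in AID_wash. Its mean percentile of 96.8 was the highest in the HOX windows. The HOXD region between HOXD12 and HOXD11 (176103956 to 176105193) gave 10.94 and 10.29 in AID_ctrl, 10.38 and 12.39 in AID_aux, and 11.76 in both AID_wash libraries. In HOXB it was the start of HOXB13 itself. The HOXA region lay outside the genes, 17825 bp beyond HOXA2 (27081821 to 27082529), with 6.53 and 7.84 in AID_ctrl, 10.08 and 6.56 in AID_aux, and 4.45 and 5.49 in AID_wash. All of these regions were called in all 6 degron libraries.

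Auxin changed few HOX calls. A region counted as lost when both control libraries and neither auxin library called it, and as gained in the opposite case. Of 137 HOX regions called in AID_ctrl or AID_aux, 1 was lost, beside 2.36% of all 115431 regions. In the same comparison 6 were gained (4.38%), beside 2.58% of all regions, and 73 were called in all 4 libraries (53.3%), beside 59.6%. All 7 changed regions lay in HOXA or HOXB, and no HOX start was lost or gained, beside 0.411 and 0.49% of all promoters.

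The lost region lay in the overlapping bodies of HOXA3 and HOXA4 (27129740 to 27130002). Its enrichment was 3.06 and 2.33 in AID_ctrl and 2.41 in AID_wash 1, with no call in AID_aux or AID_wash 2. A 469 bp region beside it (27130150 to 27130618) was called in AID_aux 1 and AID_wash 2 only, at 2.61 and 2.42. AID_aux 2 called neither of these regions, and whether the loss was a shift of position was not tested. Among the gained regions, 1 inside HOXA10 (27175271 to 27175514) had 2.38 and 2.16 in AID_aux and 2.42 and 1.96 in AID_wash. Another, 504 bp long between HOXA11 and HOXA13 (27191858 to 27192361), had 2.93 and 2.65 in AID_aux and 2.91 and 2.49 in AID_wash. Both were thus called in all 4 auxin and wash libraries and in neither AID_ctrl library. Without auxin, the HOXA10 region was also called in all 4 WT and KO libraries, and the 504 bp region in WT 1, KO 1 and KO 2. The gained region at 27189364 to 27189607, also between HOXA11 and HOXA13, had 1.99 and 2.53 in AID_aux and 2.58 in AID_wash 1.

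In HOXB the gained regions were 2 inside HOXB6 and 1 inside HOXB9. The HOXB6 region at 48595935 to 48596922 had 1.70 and 1.90 in AID_aux and 1.68 in AID_wash 2. The HOXB6 region at 48601425 to 48601980 had 1.93 and 1.78 in AID_aux, and the HOXB9 region at 48625211 to 48625446 had 1.94 and 1.96, both with no call in AID_wash. All 7 changed regions were weak peaks, below the median enrichment of all peaks. Both HOXB6 regions were called in at least 3 of the 4 WT and KO libraries, which had no auxin. The HOXB9 region was overlapped by a window in WT 1 and in WT 2 and by none in KO.

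After the wash, 3 of 132 HOX regions called in AID_aux or AID_wash were lost, beside 3.48% of all regions, and 0 were gained, beside 1.21%. All 4 libraries called 72 (54.5%), beside 57.4%. The direction depended on the setting: with equal list lengths, and with a -log10 p of at least 10, 1 was lost and 3 were gained. Leaving out 1 library in turn gave 6 to 13 lost and 1 to 7 gained. At the main setting the 3 lost were the latter HOXB6 and HOXB9 regions and a 202 bp region 6021 bp from the HOXB1 start (48537032 to 48537233), which had 3.60 and 3.66 in AID_aux and 3.76 in AID_ctrl 2. The lost HOXA3 and HOXA4 region was called in 1 of the 2 AID_wash libraries, so it did not count as regained. Between AID_wash and AID_ctrl, 0 of 130 HOX regions were lost, beside 2.67% of all regions, and 3 were gained, beside 0.685%, while 71 (54.6%) were called in all 4 libraries, beside 60%. The gained ones were the HOXA10 region, the 504 bp region between HOXA11 and HOXA13, and a 210 bp region 1020 bp from the HOXB13 body (48723534 to 48723743) with 2.81 in AID_aux 1 and 3.13 and 2.81 in AID_wash. No HOX start was lost or gained in either comparison, beside 0.543 and 0.159% of all promoters against AID_aux and 0.485 and 0.174% against AID_ctrl. The 3 degron comparisons share libraries, so their counts are not independent.

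The share of the HOX windows under peaks was 9.82 and 9.39% in AID_ctrl, 10.6 and 9.25% in AID_aux, and 8.63 and 9.39% in AID_wash. The groups overlapped. Within HOXD alone it was 7.03 and 6.43% in AID_ctrl, 6.14 and 5.68% in AID_aux, and 6.02 and 6.31% in AID_wash, so both controls lay above all 4 other libraries. Relative to the genome's share in the same library it was 3.07 and 2.97 times in AID_ctrl, 2.65 and 2.75 times in AID_aux, and 3.22 and 2.97 times in AID_wash, so on that scale only the AID_aux libraries lay apart.

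Between WT and KO, 1 of 138 HOX regions was lost, beside 1.24% of all 157584 regions, and 16 were gained (11.6%), beside 19.5%. In the same comparison 53 regions were called in all 4 libraries (38.4%), beside 31.9%. The gained regions numbered 3 in HOXA, 6 in HOXB, 4 in HOXC and 3 in HOXD. The KO lists were longer than the WT lists (above), and the part of list length in the gains was not tested. Without WT replicate 1, the longer WT list, 45 HOX regions were gained, beside 37.5% of all regions. Of the 16 gained regions, 3 overlapped merged degron regions called in all 6 libraries, 8 overlapped ones called in some, and 5 overlapped none.

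**Figure D5:**
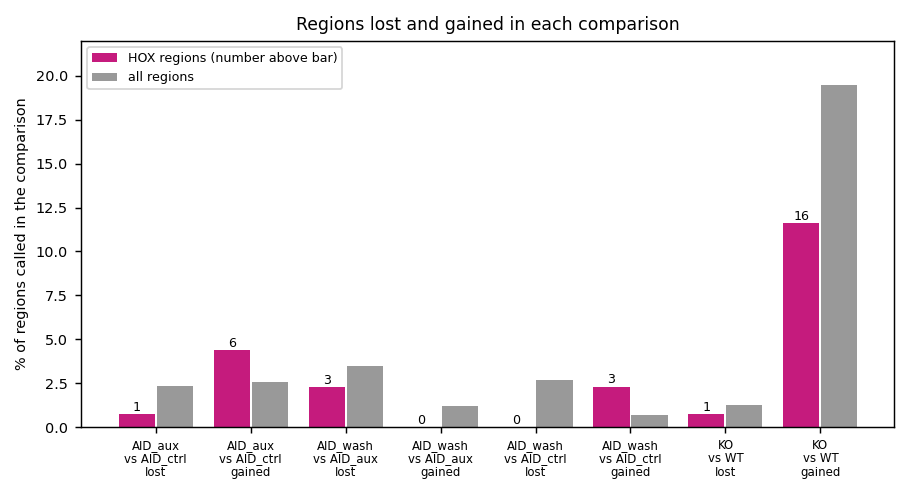
Bars give the percent of regions lost or gained in each comparison, for HOX regions (with their number above the bar) and for all regions. In KO against WT, the HOX bar for gained regions stands at 11.6% and the bar for all regions at 19.5%, while in the 3 degron comparisons every bar lies below 5%.

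The lost region lay on the HOXD8 start at 176129705 (176129018 to 176129866). WT 1 had a window over the start, 176129367 to 176129866, and another at 176130161 to 176130660. WT 2 had a window ending before it, 176129018 to 176129517. KO 1 and KO 2 had windows inside the gene, 176129990 to 176130489 and 176129999 to 176130498, and none over the start. In the degron lists 1 broad peak of 926 to 1484 bp covered both places in 5 libraries and only the inner one in AID_aux 1, where it began 219 bp from the start. Its enrichment at the HOXD8 start was 5.53 and 5.80 in AID_ctrl, 5.31 in AID_aux 2, and 5.62 and 4.29 in AID_wash. With 1000 bp on each side of the start, all 10 libraries had a HOXD8 peak. WT 1 had both the window over the start and the inner one, and WT 2 only the one before the start. Both KO libraries had only the inner one. Whether a call was lost or shifted there was not tested.

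At the HOXB9 start the calls also fell from both WT libraries to neither KO library. The KO windows ended 62 and 63 bp short of the start at 48626358, and the nearer WT windows were 48626023 to 48626522 and 48626404 to 48626903. Each WT library had a further window within 1000 bp, 48625060 to 48625559 in WT 1 and 48625420 to 48625919 in WT 2. Each KO library had only 1 window there. Whether a HOXB9 call was lost or shifted was not tested. At the HOXB7 start, both KO libraries had a window 24 and 27 bp upstream (48611041 to 48611540 in KO 1), between flanking windows that all 4 libraries shared. The nearest WT windows lay 226 and 204 bp from that start. Among the 12 HOX promoters of the RefSeq table that WT or KO called, HOXD8 was the 1 lost, beside 3.32% of all promoters, and 0 were gained, beside 4.07%. The HOXB9 and HOXB7 starts come from the gene table. With 1000 bp on each side, the starts of HOXD8, HOXB9 and HOXB7 were called in all 4 libraries and HOXC8 alone was gained.

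HOXC8, which patterns the thoracic region, had 2 adjoining windows in KO 1 (54008740 to 54009239 and 54009254 to 54009753) and 1 in KO 2 (54009238 to 54009737). In WT 1 and WT 2 the nearest window lay 2501 and 2613 bp from the start. In the degron lists only AID_aux 2 had a peak within 1000 bp, of 150 bp. A gained region inside HOXA3 (27118094 to 27118619) lay on an alternative RefSeq start of that gene, and 1 inside HOXB6 (48603966 to 48604466) lay 520 bp from its start.

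The other gained regions among the 12 changed ones nearest to a start lay 3020 to 6861 bp from it. They were a region of the HOXB3 body near HOXB4 (48581370 to 48582073), 1 in the HOXB3 body near HOXB2 (48551970 to 48552471), 1 upstream of HOXB9 (48630192 to 48630709), 1 in the HOXD13 body (176088249 to 176088809), 1 in the HOXC10 body (53989397 to 53989908), 1 beyond HOXA2 (27096910 to 27097434) and 1 beyond HOXD8 (176134957 to 176135487). The HOXC10 region overlapped a merged degron region called in all 6 libraries, and the HOXD13 and HOXA2 regions overlapped ones called in 5. The other 5 gained regions lay 11757 to 51459 bp from a start.

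Coverage of the HOX windows was higher in KO than in WT in both replicates, as it was genome-wide. It was 8.04 and 5.63% in WT and 9.64 and 8.92% in KO, and the KO libraries did not overlap the WT libraries. Relative to the genome's share in the same library, it was 5.17 to 5.25 times in WT and 4.48 to 4.65 times in KO. In HOXD the shares were 3.14 and 2.44% in WT and 4.88 and 3.83% in KO, or 2.05 to 2.24 and 2.0 to 2.27 times the genome's.

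The promoter sequences of the 20 genes in the table gave 26 distinct windows of 300 bases. They were compared with all 34789 windows of the table. Their median CG content relative to the base composition (the observed number of CG dinucleotides over the number the C and G content predicts) was 0.855, against 0.578 for all windows, at a similar GC content (58 against 58.7%). The 4 HOX windows called in all 10 libraries had a median ratio of 0.907, and the 7 called in none had 0.631, with a range from 0 to 0.868, so the sets overlapped.

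Motifs were searched as exact letters on both strands. The GATA motif, spelled AGATAA with its variant AGATAG, likewise TGATAA with its variant TGATAG, was found in 7 of 26 HOX windows, 26.9% against 25% of all windows. CDX (TTTATNG) was found in 6, 23.1% against 9.74%, and the TATA box, with the letters TATAAA, in 5, 19.2% against 11.6%. The letters of CDX can overlap those of TATA on the opposite strand, as they do in HOXA9 and HOXA10. AP-1 (TGANTCA) was found in no HOX window and in 7.69% of all windows. In the sequences printed above, CDX letters lie 92 bases before the start of HOXD8 and 31 before the start of HOXC4, and TGATAA lies 59 bases before the start of HOXD4, which no library called. A match is not a bound site, and several HOX windows share a gene.

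Genes that act with or on the HOX clusters were read from the same promoter table, in which 33.9% of all genes were called in all 10 libraries and 45.9% in none. Of 7 HOX cofactors (which bind DNA with HOX proteins) in the table, PBX4 and PKNOX1 were called in all 10 libraries and PBX3, MEIS1 and MEIS3 in none. MEIS2 was gained in KO, beside 4.07% of all promoters, and was also called in both AID_ctrl and both AID_aux libraries. Among 4 caudal and ParaHox genes, CDX2 was called in all 10 libraries and CDX4, GSX1 and GSX2 in none. The cluster neighbour EVX1, beside HOXA, was called in all 10 libraries, and EVX2, beside HOXD, in none. Of 11 Polycomb genes 8 were called in all 10 libraries and 0 in none, and EZH1 was lost in KO, beside 3.32% of all promoters. Of 6 trithorax and demethylase genes 2 were called in all 10 and 0 in none. Among 6 retinoic acid genes, RARG and CYP26A1 were called in all 10 libraries and CYP26B1 and ALDH1A2 in none. No gene of these lists was lost or gained in a degron comparison, where the shares of all promoters lost or gained were only 0.159 to 0.543%.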

How the data were processed

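Peak lists of 10 ATAC-seq libraries (50000 viable cells and 150-nt paired reads, per the labels' protocols) were analysed. Per the submitters' processing notes, the build was hg38 and the tools were MACS2 2.1.1, Bowtie2 2.4.2, Trim Galore 0.6.10 and Picard, listed without settings. How the transposase offset and blacklisted regions were handled was not stated. Each deposited degron list holds a score, an enrichment (a ratio over local background) and -log10 p and q values per summit. No deposited degron peak had a -log10 p under 5. The deposited WT and KO lists hold positions only. One list was deposited per library.

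From chromosomes 1 to 22 and X, overlapping peaks were joined into regions, separately for the 6 degron lists and the 4 WT and KO lists, and a library called a region with at least 1 bp of overlap. Enrichment was ranked within its own list. Lost and gained regions and promoters were counted, 2 libraries against 2, with no test. Gene bodies and promoters came from RefSeq tables (GRCh38.p14), and strand from the promoter table. HOXB2 to HOXB13, HOXC6 to HOXC13, HOXA5 and HOXD9 are not in that promoter table. The members and lists were chosen with earlier results of these data known. Named were every changed region (for KO the 12 nearest to a start), changed or never called starts, and each cluster's strongest start and peak. Alternatives were a stricter -log10 p of 10, an overlap of 50%, other reaches, 500 bp summit windows, equal list lengths and each library left out. The counting was checked on simulated lists. Python 3.11.15, pandas 2.3.3, NumPy 2.4.6 and matplotlib 3.10.9 were used.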

Additional observations from a re-analysis of the deposited data

Results flagged for a closer look

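The share of the HOXD windows under peaks moved in opposite directions in the 2 ways of removing GATA6. With 12 h of auxin it was 6.14 and 5.68%, against 7.03 and 6.43% in AID_ctrl, a difference of -0.822 percentage points between the means. In KO it was 4.88 and 3.83%, against 3.14 and 2.44% in WT, a difference of 1.57 percentage points. Of the 4 clusters, HOXD alone was flagged, because every library of each removal lay on its own side of its control, in opposite directions. That separation is the rule of selection and no further support. The difference between these contrasts was not tested. Relative to the genome's share in the same library, HOXD stood at 2.65 and 2.75 times in AID_aux against 3.07 and 2.97 in AID_ctrl, but at 2.27 and 2.0 times in KO against 2.05 and 2.24 in WT. On that scale the KO and WT libraries overlapped, so the opposite direction holds for the unscaled share only. Genome-wide the lists covered 2.07 to 2.32% in AID_aux, 2.17 to 2.29% in AID_ctrl, 1.92 to 2.15% in KO and 1.09 to 1.53% in WT, so the KO change in HOXD had the same direction as the change in the whole lists.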

How the results depend on the processing

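Of 76 results under another setting (leaving out a library not counted), 47 stayed within 1.5 times the main count or within the spread between replicates, and 29 moved. Equal list lengths gave 2 lost and 3 gained HOX regions after auxin, 1 lost and 3 gained after the wash against AID_aux, and coverage of 8.63% in AID_ctrl and 8.83% in AID_aux. The WT and KO lists carry no value to shorten them by, so equal lengths could not be set there. A -log10 p of at least 10 gave 3 gained after auxin, 1 lost and 3 gained in AID_wash against AID_aux, and 1 lost against AID_ctrl. An overlap of 50% gave 5 lost in AID_wash against AID_aux, 2 lost against AID_ctrl and 3 lost in KO. Gene bodies alone gave 1 gained region in AID_wash against AID_ctrl, 8 gained in KO, and coverage of 11.1% in KO. A reach of 5 kb gave coverage of 11.2% in AID_ctrl, 11.6% in AID_aux, 10.7% in AID_wash and 10.9% in KO. Promoters called in both libraries became 11 in WT and 13 in KO with 1000 bp on each side, and 3 and 5 when peaks had to cover 50% of the window. With gene-table starts for 18 more genes, an alternative chosen after seeing the data, they became 18 in AID_ctrl, 15 in AID_aux, 17 in AID_wash, 13 in WT and 16 in KO.

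Leaving out 1 library loosens the rule for a change, since fewer libraries must call or miss a region, and the counts rose. After auxin they ranged from 2 to 10 lost (10 with AID_ctrl replicate 2 left out, 7 with AID_ctrl replicate 1, 9 with AID_aux replicate 1 and 2 with AID_aux replicate 2) and from 8 to 16 gained (12 without AID_aux replicate 1, 16 without AID_aux replicate 2). AID_wash against AID_aux ranged from 6 to 13 lost and 1 to 7 gained, and against AID_ctrl from 5 to 11 lost and 5 to 9 gained, with each of the 4 libraries moving the count. KO against WT ranged from 1 to 7 lost (7 without WT replicate 1, 6 without WT replicate 2, 4 without KO replicate 1) and 18 to 45 gained (45 without WT replicate 1, 25 without KO replicate 1, 30 without KO replicate 2). The promoter counts ranged from 12 to 12 in AID_ctrl, 10 to 11 in AID_aux, 10 to 12 in AID_wash, 9 to 9 in WT and 8 to 9 in KO, and coverage from 9.39 to 9.82% in AID_ctrl, 9.25 to 10.6% in AID_aux, 8.63 to 9.39% in AID_wash, 5.63 to 8.04% in WT and 8.92 to 9.64% in KO.

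No paired analysis was possible because the results are counts of calls and come from no test. Depth is unknown, and an absent call sets no upper limit on accessibility. The cause of the other moves was not tested.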

Other observations

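The HOX windows also hold microRNA genes, 8 of which were in the RefSeq table used. They were examined after the gene results had been seen. Each was scored as near a peak when one lay within 1000 bp of the 5′ end of its hairpin. MIR196B (between HOXA9 and HOXA10), MIR615 (in HOXC4), MIR10A (in HOXB3) and MIR3185 (beside HOXB13) were near a peak in all 10 libraries. MIR196A1, MIR196A2 and MIR7704 were near one in all 6 degron libraries and in WT 1, KO 1 and KO 2, while in WT 2 the nearest peaks lay 1034, 1049 and 47725 bp away. MIR10B, upstream of HOXD4, had no peak nearer than 7048 bp in any library, in the same empty stretch as the HOXD4 start.

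The miR-196 genes in 3 clusters give mature microRNAs of 1 seed family, known to target HOX transcripts, while miR-10 lies beside the paralog group 4 genes. Their mature sequences, from RefSeq, are printed with the seed (bases 2 to 8) in capitals.
hsa-miR-196a-5p: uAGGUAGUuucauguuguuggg
hsa-miR-196b-5p: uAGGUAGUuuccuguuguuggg
hsa-miR-10a-5p: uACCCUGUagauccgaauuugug
The first and the second share the seed AGGUAGU, and both of the loci for miR-196a-5p and the locus for miR-196b-5p had a peak within 1000 bp in all 6 degron libraries. A nearby peak does not show that a microRNA was made.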
